A study of Mus musculus with 84 samples.

Results

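Hindbrain GLAST-negative astrocytes at the onset of experimental autoimmune encephalomyelitis (EAE) were compared with the same population of unimmunized mice. The comparison rests on 11 libraries, 6 at stage E1 and 5 of controls (C), chosen by their titles among the 66 libraries of the EAE experiment and the 84 of the whole series. Stage E1 is clinical score 1, a limp tail. The mice were female C57BL/6J mice of 10 weeks at immunization, and EAE was induced with a MOG peptide in complete Freund's adjuvant and pertussis toxin, while controls received no immunization. Hindbrain here means cerebellum and brain stem. Cells were sorted as negative for CD11B and CD45, positive for ACSA-2, the astrocyte surface antigen encoded by Atp1b2, and negative for GLAST, the glutamate transporter encoded by Slc1a3. A library could combine RNA from as many as 2 mice, so p-values measure the spread between such pools. Libraries were made with the QuantSeq 3′ kit, so levels are compared between groups and never between genes.

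Astrocytes carry receptors for interferons, cytokines that T cells and many infected or inflamed cells release. Interferon receptors act through JAK kinases on STAT transcription factors, which bind GAS elements as dimers and, in a complex that holds STAT2 and IRF9, interferon-stimulated response elements (ISRE). Their targets include immunity-related GTPases and guanylate-binding proteins, antiviral proteins, and the machinery that loads peptides on MHC class I for CD8 T cells. STAT3 and NF-kappaB drive another set of genes in reactive astrocytes, among them the intermediate filament gene Gfap.

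Each of the 11 libraries held between 1313682 and 3515391 counts, with E1 library 2 the lowest. Levels are given as CPM, a gene's counts relative to the TMM-scaled total of its library, and 3 counts correspond to between 0.853 and 2.28 CPM in these libraries, a floor that covers counting error only. Slc1a3 was between 1137 and 1771 CPM in controls and between 837 and 1501 CPM at E1, against 5485 to 9085 CPM in GLAST-positive control libraries, so the GLAST-negative libraries still held Slc1a3 RNA. The summed markers of Bergmann glia, the radial astrocytes of the cerebellar cortex, were 2890 to 3553 CPM in controls and 2414 to 3561 CPM at E1, against 16265 to 20217 CPM in GLAST-positive controls. This sum includes Slc1a3, so it is not separate from the values above. Gdf10, another member, was at 35.4 to 107 CPM in controls and 47.3 to 155 CPM at E1, against 1215 to 2234 CPM in GLAST-positive controls. Spinal Hox genes, which mark cells of the cord, summed to at most 12.8 CPM in the 11 libraries, against 447 to 786 CPM in spinal cord controls.

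At E1, 148 of 23324 genes tested were higher (0.635%) and 2 were lower (0.00857%), at an adjusted p under 0.05 and a log2 fold change beyond 1 in edgeR's quasi-likelihood test. Of the 148 higher genes, 51 belonged to lists of interferon-gamma targets, interferon-stimulated genes or MHC class I presentation. These lists had 23, 31 and 17 genes tested, share some genes, and were chosen with earlier results of these data known. The log2 fold changes of the 148 ran from 1.00 to 10.40 with a median of 3.53. In 127 of the 148, all 6 E1 libraries lay above all 5 controls, which held for 1.46% of all genes tested. The 148 were called from these same libraries, so this separation follows in part from the selection. Controls had no count at all for 16 of them. In sorted bulk cells, more cells that express a gene and more RNA of it per cell cannot be told apart.

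Response elements were searched in RefSeq promoter windows (build GRCm38.p6), from 250 bases before to 50 after each start site, to show what the promoters of these genes hold. An ISRE match was GAAA, any 2 bases and GAAA, and a GAS match TTCNNNGAA, on both strands, and a stretch could match both. Of the 148 genes called higher, 107 had a window, and 24.3% of these held an ISRE match, against 3.99% of all 27025 genes with a window. A GAS match was found in 15.9% of the 107 and in 9.55% of all genes. Among interferon-gamma targets called higher, 8 of 12 genes with a window held an ISRE match and 5 of 12 a GAS match, while among called interferon-stimulated genes the counts were 9 of 19 and 3 of 19. Among called MHC class I genes 1 of 10 held each motif, among called glucocorticoid-responsive genes 1 of 4 held each, and among called complement genes 0 of 2 held an ISRE match and 1 of 2 a GAS match. Outside the interferon and MHC class I lists 8 of 67 genes (11.9%) held an ISRE match, and the same number held a GAS match.

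The 200 bases before the start site are shown for 5 of the genes that rose, 4 of them interferon targets with matches and Serpina3n, an acute-phase serpin, without any. The first 2 encode interferon-gamma GTPases and the next 2 an ubiquitin-like antiviral modifier and a membrane protein that tethers virions. Capitals mark the matches, and each sequence runs 5′ to 3′ on the gene's strand. They lie at chr11:58199356-58199555 (plus) for Igtp, chr3:142530136-142530335 (plus) for Gbp7, chr4:156200819-156201018 (minus) for Isg15, chr8:71537473-71537672 (minus) for Bst2 and chr12:104406508-104406707 (plus) for Serpina3n.
Igtp: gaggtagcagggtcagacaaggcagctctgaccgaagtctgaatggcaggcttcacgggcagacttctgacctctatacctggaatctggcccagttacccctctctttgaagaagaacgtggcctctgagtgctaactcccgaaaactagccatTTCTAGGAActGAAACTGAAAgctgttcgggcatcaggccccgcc
Gbp7: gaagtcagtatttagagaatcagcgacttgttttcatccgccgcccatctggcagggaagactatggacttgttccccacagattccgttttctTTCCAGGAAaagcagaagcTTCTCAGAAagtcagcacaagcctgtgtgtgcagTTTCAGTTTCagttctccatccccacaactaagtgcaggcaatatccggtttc
Isg15: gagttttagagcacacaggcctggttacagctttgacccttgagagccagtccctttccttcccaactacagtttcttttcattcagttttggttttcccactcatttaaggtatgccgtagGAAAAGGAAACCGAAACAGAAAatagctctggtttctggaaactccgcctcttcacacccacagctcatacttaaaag
Bst2: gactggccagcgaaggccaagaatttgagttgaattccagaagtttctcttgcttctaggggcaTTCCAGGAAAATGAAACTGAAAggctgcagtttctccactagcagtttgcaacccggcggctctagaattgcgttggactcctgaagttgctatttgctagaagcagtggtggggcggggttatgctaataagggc
Serpina3n: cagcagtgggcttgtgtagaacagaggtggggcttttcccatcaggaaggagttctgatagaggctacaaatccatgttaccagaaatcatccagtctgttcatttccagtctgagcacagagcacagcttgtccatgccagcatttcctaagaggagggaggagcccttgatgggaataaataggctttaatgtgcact
In Igtp the GAS match began at -45 and the ISRE match at -34 from the start site, and in Gbp7 the ISRE match began at -53 with GAS matches at -106 and -87. Isg15 held 3 overlapping ISRE matches, at -78, -72 and -66, and no GAS match. Bst2 held ISRE matches at -130 and -124 that overlap each other and a GAS match at -136. A match describes letters only, and binding was not measured.

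Immunity-related GTPases and guanylate-binding proteins, which attack vacuoles that hold pathogens, rose by large factors. Of 23 interferon-gamma targets tested, 16 were called higher and none lower, with a median log2 fold change of 4.89 over the list (4.35 with the 7 genes that had no count in controls set at a lower bound, their pooled E1 level over a floor of 3 counts in all 5 controls), against a median of 0.00 over all genes. Igtp (Irgm3, chr11:58199556-58207591, plus strand) was at 12.7, 10.6, 9.99, 17.7 and 15.7 CPM in controls and at 157 to 1074 CPM at E1, with a median of 615 CPM. Every E1 library was far above every control, and library 2 was the lowest of the 6. The log2 fold change was 5.47 ± 0.67 (SE) at an adjusted p of 2.48e-08. Iigp1 was at 1.27, 0, 2.66, 1.73 and 2.25 CPM in controls and between 67.6 and 544 CPM at E1 with a median of 428 CPM, a log2 fold change of 7.91 ± 0.89 (adjusted p = 3.91e-09). The order of libraries was alike, with library 2 lowest and libraries 1, 4 and 5 close together at the top.

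Gbp7 was at 15.3, 9.2, 13.3, 12.5 and 12.9 CPM in controls and at 64.3 to 245 CPM at E1 (median 163 CPM), and rose by a log2 fold change of 3.68 ± 0.51 (adjusted p = 8.24e-07). Ifi47 had no count in any control and stood between 11.4 and 47.9 CPM at E1 (median 40.7 CPM). Thus both families moved, in genes with a steady level in controls and in genes silent there. Irgm1 (log2 fold change 3.89), Irgm2 (4.88), Gbp2 (6.13), Gbp3 (5.40) and Gbp5 (4.90) also rose without overlap between the groups. Igtp and Irgm2 overlap on the same strand and Ifi47 overlaps Olfr56, so reads in shared stretches could not be assigned, and whether counting used strand is not given in the sources used here. Gbp4 and Gbp6 passed the test too, but Gbp6 ran from 1.63 to 121 CPM at E1. Their calls were lost without any of the 5 controls in turn (adjusted p 0.065 to 0.0801 for Gbp4 and 0.105 to 0.129 for Gbp6), and that of Gbp6 also without E1 library 4 (0.0804), 5 (0.0816) or 6 (0.0514).

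Regulators of the same program rose as well. Irf1, a transcription factor that interferon-gamma induces, was at 32.3, 35, 21.3, 22.5 and 34.8 CPM in controls and at 96.9 to 392 CPM at E1 (median 277 CPM), a log2 fold change of 3.17 ± 0.48 (adjusted p = 5.95e-06). Nlrc5, the activator of MHC class I genes, was at most 0.666 CPM in any control and between 11.3 and 36.8 CPM at E1 (6.20 ± 0.84, adjusted p = 6.21e-07). Cd274, which encodes the checkpoint ligand PD-L1, was at 0.85, 3.68, 0.666, 0.693 and 1.69 CPM in controls and between 8.95 and 40.5 CPM at E1 with a median of 27.4 CPM (4.07 ± 0.84, adjusted p = 0.0026). None of these 3 genes overlapped between the groups. Socs1, a feedback inhibitor of JAK kinases in the same list, was at 4.5 to 25.9 CPM in controls and 4.88 to 25.7 CPM at E1, and its log2 fold change was 0.22 ± 0.55. Irf8, Cxcl9, Gbp9 and Tgtp2 did not pass the test, at log2 fold changes of 2.06, 4.24, 3.12 and 5.14.

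**Figure D1:**
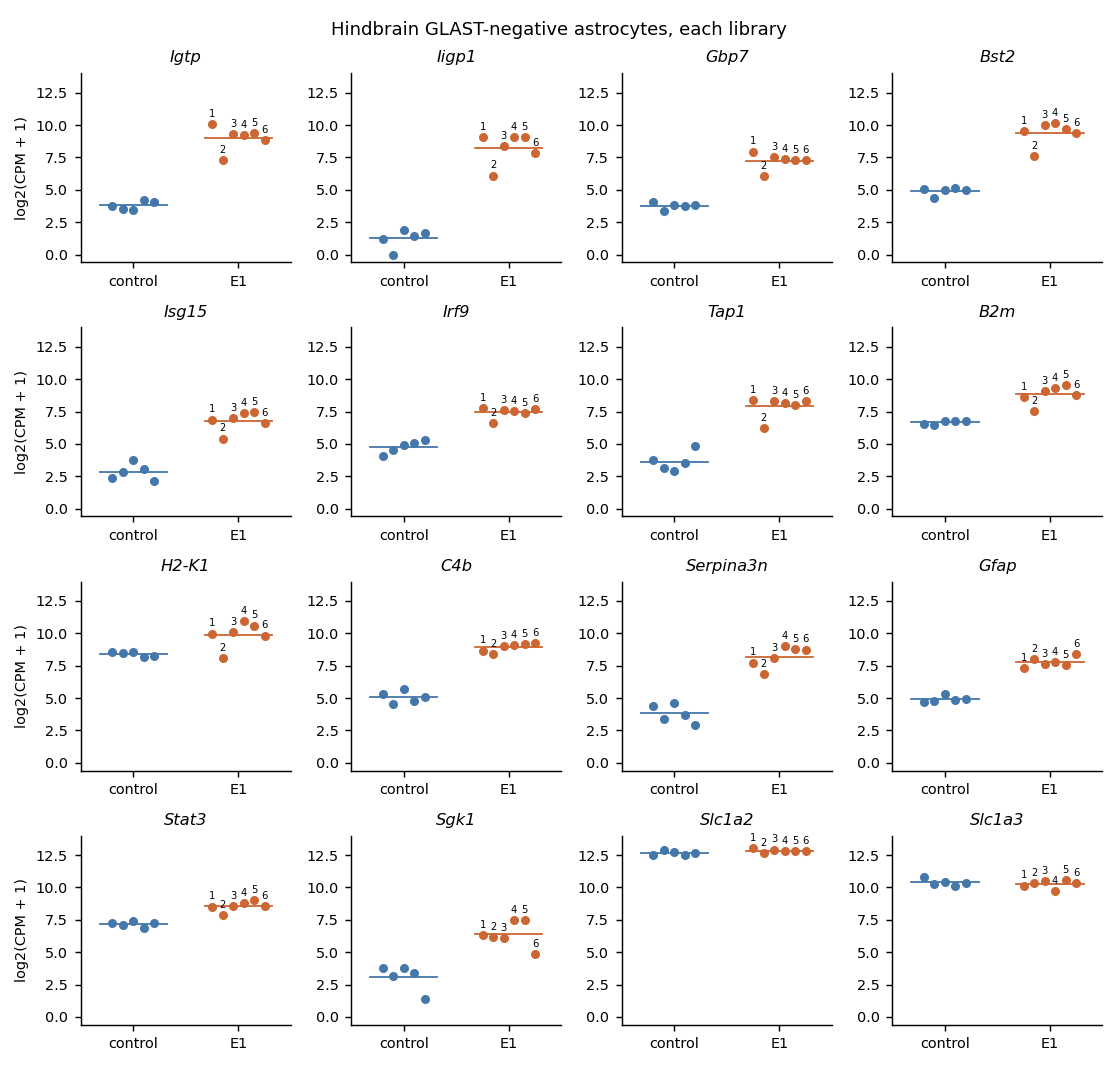
Level of 16 genes in each library as log2(CPM + 1), with controls in blue, E1 in orange and group means as lines; small numbers name the E1 libraries. E1 library 2 is the lowest of the 6 for the interferon targets, such as Igtp at 157 CPM, but not for Gfap at 261 CPM, and Slc1a2 and Slc1a3 overlap between the groups.

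Interferon-stimulated genes, most of which respond to type I interferon, rose in their majority. Of 31 tested, 26 were called higher and none lower, and the other 5 had log2 fold changes between 1.17 and 7.38, the list's own median being 3.66. Bst2 was at 32.7, 19.3, 30, 34.3 and 31.5 CPM in controls and between 195 and 1125 CPM at E1 (median 774 CPM), a log2 fold change of 4.68 ± 0.56 (adjusted p = 1.57e-08). Isg15 was at 4.25, 5.98, 12.7, 7.27 and 3.37 CPM in controls and between 41.5 and 173 CPM at E1 (median 121 CPM), a change of 4.19 ± 0.69 (adjusted p = 4.1e-05). Neither gene overlapped between the groups, and library 2 was lowest for both.

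Members of the signalling chain rose too. Stat2 was at 17.8, 16.1, 12, 14.9 and 17.4 CPM in controls and between 68.4 and 138 CPM at E1 (median 116 CPM), a log2 fold change of 2.80 ± 0.39 (adjusted p = 1.19e-06). Irf9 rose by 2.69 ± 0.32 on the log2 scale, and Irf7, which sustains interferon production, by 4.95 ± 0.82. Antiviral effectors followed, with log2 fold changes of 4.35 for Rsad2, 4.65 for Ifit1, 3.66 for Ifit3, 4.81 for Oasl2 and 4.10 for Rtp4, and Usp18, which removes ISG15 and damps the receptor, rose by 3.58. All E1 libraries lay above all controls for each of these 9 genes. Mx1 had no count in controls and 3.09 to 10.9 CPM at E1, but its adjusted p was 0.0519. Ifih1, Ifit2 and Psme2 were called on the narrowest margins: each lost its call without most single libraries, with adjusted p-values of up to 0.173, 0.163 and 0.221, and Xaf1 lost it without control 5 (0.0601).

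Interferon receptors and their kinases, which were added after first results had been seen, did not pass the test. Log2 fold changes were -0.04 for Ifngr1, 0.44 for Ifngr2, -0.22 for Ifnar1, 0.45 for Ifnar2, 0.07 for Jak1, 0.59 for Jak2 and 0.50 for Tyk2. Of the ligands, Ifng had 0 counts in the 5 controls and 8 counts over the 6 E1 libraries, and Ifnb1 had 0 counts in all 66 libraries.

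MHC class I presentation rose through most of its steps, with 11 of 17 genes called higher, none lower and a median log2 fold change of 2.49. At the surface, B2m, the shared light chain, was at 94.3, 87.9, 109, 111 and 107 CPM in controls and at 186 to 759 CPM at E1 (median 487 CPM), a change of 2.27 ± 0.35 (adjusted p = 9.7e-06). H2-D1, a heavy chain, was at 58.6, 36.8, 55.9, 42.6 and 56.8 CPM in controls and at 49.7 to 662 CPM at E1 (median 197 CPM), a change of 2.49 ± 0.40 (adjusted p = 2.49e-05). H2-K1, the other classical heavy chain of this strain, was at 372, 362, 372, 287 and 296 CPM in controls and at 268 to 1938 CPM at E1 (median 1045 CPM), a change of 1.73 ± 0.32 (adjusted p = 0.000512). B2m did not overlap between the groups, while E1 library 2 fell among the controls for H2-D1 and below all of them for H2-K1. Without E1 libraries 4 and 5, where both heavy chains were highest, H2-K1 had a change of 1.28 at an adjusted p of 0.058.

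Genes of peptide supply rose as well. Tap1, a subunit of the peptide transporter, was at 12.3, 7.82, 6.66, 10.7 and 27 CPM in controls and at 74.9 to 329 CPM at E1 (median 298 CPM), a log2 fold change of 4.35 ± 0.51 (adjusted p = 1.32e-08). The immunoproteasome subunits Psmb8 and Psmb9 rose by 5.54 ± 0.77 and 5.18 ± 0.85, Psmb10 by 1.77 ± 0.37, and Tapbp, which bridges TAP and heavy chains, by 1.48 ± 0.32. Tap2, the partner of Tap1, was at 11.8 to 105 CPM in controls and 12.7 to 201 CPM at E1, a change of 0.38 ± 0.82. Tap1 and Psmb9 lie on opposite strands and overlap. H2-Q4 and H2-Q7 were also called, but class I genes are near copies of each other and their counts are uncertain, and both calls were lost without E1 library 5 (adjusted p = 0.216 and 0.0557). That of H2-Q4 was also lost without any of the 5 controls (0.0806 to 0.0985) and in a fit of only the groups compared (0.0558), and that of H2-Q7 without control 1, 2, 4 or 5 (0.0734 to 0.0834).

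The 10 genes of MHC class II, which presents to CD4 T cells, all had log2 fold changes above 0, with a median of 2.45. Their sum was 11.2 to 50.1 CPM in controls and 123, 115, 124, 237, 286 and 58 CPM in E1 libraries 1 to 6, without overlap. This sum includes Ctss, a protease gene that also belongs to the microglia and myeloid list given below, so the sums of the lists are not independent. H2-Aa alone was called, with no count in controls and 3.01, 0, 2.58, 17, 25.7 and 0.652 CPM in E1 libraries 1 to 6 (adjusted p = 0.00791), and without E1 library 5 the adjusted p was 0.0556. Cd74, the invariant chain, had no count in controls and 0.978 to 8.27 CPM at E1 (adjusted p = 0.0993), and H2-Ab1 was at 0 to 1.73 CPM in controls and up to 19.9 CPM at E1 (adjusted p = 0.0786). Neither overlapped between the groups. Antigen-presenting myeloid cells express these genes strongly, and the microglia and myeloid sum given below moved in the same direction; its part in these values was not tested.

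**Figure D2:**
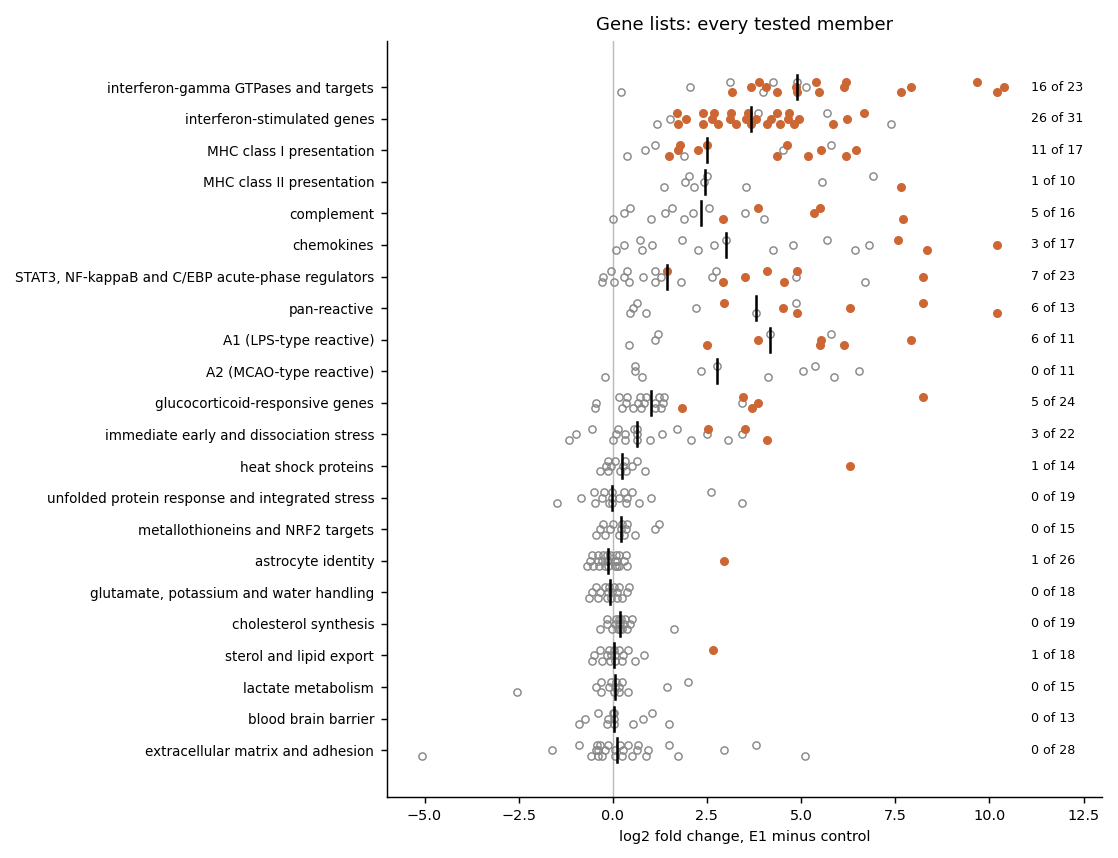
Log2 fold change at E1 of every tested member of 22 gene lists, with called genes as filled orange points, others as open points and the list median as a bar; called genes are counted at the right. The interferon lists stand at 16 of 23 and 26 of 31 called, while astrocyte identity and metabolic lists lie around 0.

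Complement and chemokine genes rose in part. Of 16 complement genes 5 were called higher, with a list median of 2.34. C4b, a central component of the classical pathway, was at 39.1, 22.5, 51.3, 26.3 and 32.6 CPM in controls and at a median of 528 CPM at E1, a log2 fold change of 3.86 ± 0.42 (adjusted p = 1.56e-09). E1 libraries 1 to 6 were at 405, 330, 517, 539, 578 and 615 CPM, all above every control. C4a, a near copy whose reads may be shared with C4b, rose by 5.35 ± 1.00, and Serping1, which inhibits the first complement component, by 5.51 ± 0.89. C1ra, a protease of that component, had no count in controls and 0.814 to 17.3 CPM at E1. C3 was at most 1.12 CPM in controls and between 0 and 14 CPM at E1 with an adjusted p of 0.186. C1qb was called (2.92 ± 0.67) and is a microglial gene, and its call was lost without control 2 (0.0741) or control 5 (0.0614).

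Of 17 chemokines 3 were called, with a list median of 2.68 when the 7 genes silent in controls are set at their lower bound. Cxcl10, which attracts activated T cells, had no count in any control and was at 27.8, 9.77, 32, 48.4, 139 and 37.8 CPM in E1 libraries 1 to 6 (adjusted p = 6.4e-05). All 6 libraries carried it, with library 5 well above the rest. It lies within Art3 on the other strand. Ccl2, which attracts monocytes, had no count in controls and 1.63 to 32.9 CPM at E1, and Ccl5 none in controls and 0 to 20 CPM. Both were highest in libraries 4 and 5, and both calls were lost without any of the 5 controls (adjusted p 0.0795 to 0.095 and 0.111 to 0.138), without E1 library 4 (0.0677 and 0.122) or without library 5 (0.0614 and 0.0958). For Ccl5 the same held without library 3 (0.0531). Il1b and Clec7a, inflammatory genes that the study followed across stages, were not called, which held in 15 of 20 alternatives for each. DESeq2 called both, at log2 fold changes of 4.86 and 4.90 (adjusted p = 0.0175 and 0.0115).

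Genes of astrocyte reactivity rose in part as well. Of the reactive lists compiled by the study from earlier work, 6 of 13 pan-reactive genes (median 3.79), 6 of 11 LPS-type or A1 genes (4.18) and 0 of 11 MCAO-type or A2 genes (2.77) were called higher. Of the A2 genes 6 had no count in controls, of the pan-reactive genes 4 and of the A1 genes 1. With those at their lower bound the medians were 0.77, 2.94 and 3.86, in the same order. The called A1 genes are Fkbp5, Gbp2, H2-D1, Iigp1, Psmb8 and Serping1, of which Gbp2, H2-D1, Iigp1 and Psmb8 are also interferon-gamma or MHC class I genes. The called pan-reactive genes are Cxcl10, Gfap, Hspb1, Lcn2, Osmr and Serpina3n. The Hspb1 call, at 0 to 9.02 CPM at E1, was lost without most single libraries (adjusted p up to 0.138).

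Serpina3n was at 19.5, 9.66, 24, 12.1 and 6.74 CPM in controls and between 113 and 510 CPM at E1 (median 347 CPM), a log2 fold change of 4.52 ± 0.54 (adjusted p = 1.57e-08). Gfap was at 25.1, 26.7, 39.3, 27.4 and 29.2 CPM in controls and at 159, 261, 196, 214, 183 and 341 CPM in E1 libraries 1 to 6, a change of 2.94 ± 0.37 (adjusted p = 7.95e-08). Both separated fully, but library 2, the lowest for Serpina3n, was above libraries 1, 3, 4 and 5 for Gfap. Lcn2, a secreted iron-siderophore binder, had no count in controls and 0.814 to 32.1 CPM at E1 (adjusted p = 0.00706), and without E1 libraries 4 and 5 its adjusted p was 0.0543. Vim, the partner filament of Gfap, was at 17 to 43.8 CPM in controls and 13.8 to 59.6 CPM at E1, a change of 0.45 ± 0.44.

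Stat3 itself and several of its targets and partners rose, 7 of 23 genes in a list of STAT3, NF-kappaB and C/EBP regulators with a median of 1.44. Stat3 was at 149, 133, 166, 117 and 149 CPM in controls and between 228 and 519 CPM at E1 (median 379 CPM), a log2 fold change of 1.44 ± 0.23 (adjusted p = 1.85e-05). Junb, an AP-1 subunit, was at 1.12 to 8.66 CPM in controls and 43.1 to 104 CPM at E1 (3.52 ± 0.52, adjusted p = 4.33e-06). Cebpd rose by 2.94 ± 0.51, Bcl3, a nuclear partner of NF-kappaB, by 4.54 ± 0.92, and Socs3, the STAT3 feedback inhibitor, by 4.08 ± 0.91. Without E1 libraries 4 and 5 the change of Socs3 was 3.09 at an adjusted p of 0.251. Osmr, the oncostatin M receptor, rose by 4.88 ± 1.19 with adjusted p-values of 0.0514 to 0.0998 without control 1, 3 or 5 or without E1 library 5. The shared receptor subunits Il6st and Lifr had changes of -0.06 and 0.04, and Nfkb1 of -0.27. Nfkbia, the NF-kappaB inhibitor, was at 296 CPM on average in controls and 647 CPM at E1 without overlap, but at an adjusted p of 0.083.

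Of 24 glucocorticoid-responsive genes 22 had a log2 fold change above 0, with a median of 1.00, and 5 were called higher, namely Fkbp5, Lcn2, Plin4, Sgk1 and Zbtb16. In 12 of the 24 all E1 libraries lay above all controls, against 1.46% of all genes. Sgk1, a kinase that glucocorticoids induce, was at 12.7, 7.82, 12.7, 9.7 and 1.69 CPM in controls and between 27.7 and 175 CPM at E1 (median 74.9 CPM), a change of 3.46 ± 0.64 (adjusted p = 0.000399). Fkbp5, a chaperone partner of the receptor, was at 3.4, 0.92, 1.33, 0 and 1.12 CPM in controls and 12.4 to 29.5 CPM at E1 (3.86 ± 0.90, adjusted p = 0.0125). Plin4, a lipid droplet protein, was at 2.12 to 4.66 CPM in controls and 24 to 85.8 CPM at E1 (3.70 ± 0.84, adjusted p = 0.00803). The groups did not overlap for these genes. Zbtb16 was highest in E1 library 2, at 57.8 CPM. The calls of Fkbp5 and Zbtb16 were lost without some single libraries, with adjusted p-values of 0.0536 to 0.0643 without controls 2, 4 or 5 for Fkbp5 and of 0.0537 to 0.0918 without controls 1, 3 or 5 or E1 library 2 for Zbtb16. Metallothioneins Mt1 and Mt2, which bind zinc and copper, were at 1421 to 3100 and 2042 to 4579 CPM in controls and at 4251 to 7085 and 6091 to 8731 CPM at E1. Neither overlapped, but at adjusted p-values of 0.148 and 0.251 they were not called, and Tsc22d3 (0.83) and Per1 (0.73) were not called either.

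Genes that define astrocytes were not called, with Gfap the exception among 26, and the median log2 fold change of that list was -0.13. Slc1a2, the main glutamate transporter, was at 5791 to 7634 CPM in controls and at 6578 to 8269 CPM at E1 (0.16 ± 0.26). The water channel Aqp4 was at 1558 to 2102 and 1458 to 1748 CPM (-0.14 ± 0.31), Gja1, which encodes connexin 43, at 1750 to 2433 and 1295 to 1934 CPM (-0.39 ± 0.38), and Atp1b2, the antigen of the sort, at 5703 to 8576 and 5936 to 9209 CPM (0.11 ± 0.28). These ranges overlapped between the groups. Aldh1l1 (0.34 ± 0.31), Fgfr3 (0.12 ± 0.28), Slc1a3 (-0.14 ± 0.26) and Apoe (-0.10 ± 0.33) had changes near 0 as well, and Btbd17 had -0.68 ± 0.27 at an adjusted p of 0.463. The 18 genes of glutamate, potassium and water handling had a median of -0.09 with none called, between -0.62 for Grm3 and 0.42 for Grm5.

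Metabolic, structural and several other lists held 0 calls. They were cholesterol synthesis (19 genes, median 0.18), lactate metabolism (15, 0.05), blood brain barrier (13, 0.02), myelination support (7, 0.27), glycolysis and hypoxia (17, 0.02), fatty acid oxidation (18, 0.07), metallothioneins and NRF2 targets (15, 0.20, with Mt1 and Mt2 as given above), the unfolded protein response (19, -0.01), clock genes (17, 0.14), extracellular matrix (28, 0.12), cell cycle (21, 0.91), growth factors (31, 0.00) and mitochondrially encoded genes (13, -0.26). The cell cycle genes summed to 102 to 150 CPM in controls and 203 to 288 CPM at E1, without overlap. Of these 21 genes 17 had a log2 fold change above 0, and for 3 all E1 libraries lay above all controls, against 1.46% of all genes. Heat shock proteins had Hspb1 alone called of 14 (0.24), and immediate early genes 3 of 22 (0.64), namely Junb, Socs3 and Ier3. Ier3 lost its call without control 5 (adjusted p = 0.0614). Fos and Egr1, classic immediate early genes, were not called at 1.31 and 1.70. In sterol and lipid export 1 of 18 genes was called: Apod, a lipid-binding lipocalin, was at 248, 95.7, 155, 300 and 131 CPM in controls and between 616 and 2078 CPM at E1 (median 949 CPM), a change of 2.65 ± 0.40 (adjusted p = 5.97e-06). Apod is also made by oligodendrocytes, and it was highest in E1 libraries 4 and 5, as were oligodendrocyte markers. Its call was kept in all 20 alternatives, among them the one without these libraries. The part of oligodendrocyte RNA in its change was not tested.

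Few genes were lower. Slc30a10, a manganese exporter, was at 98.2, 105, 93.9, 105 and 136 CPM in controls and at 55.3, 41.5, 33.5, 29.9, 35.7 and 43 CPM at E1, and fell by 1.43 ± 0.38 on the log2 scale (adjusted p = 0.0453). The groups stood well apart, yet the adjusted p rose to between 0.064 and 0.19 without any of 10 of the 11 libraries, the exception being E1 library 1. The other call, the predicted gene Gm12338, rested on control 1 at 243 CPM, while the other controls were at 4.66 CPM or less, and its adjusted p was 0.559 without that library.

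Markers of other cell types moved with stage and between the E1 libraries. Summed markers of microglia and myeloid cells were at 62.4 to 151 CPM in controls and 219 to 618 CPM at E1, without overlap, and 1 of 16, C1qb, was called. Of the 16, 14 had a log2 fold change above 0, with a median of 1.97. In 6 of them all E1 libraries lay above all controls, against 1.46% of all genes. P2ry12 and Tmem119, members of this list that define microglia, were at 7.55 and 1.89 CPM on average in controls and at 6.37 and 2.33 CPM at E1. Tmem119 lay near the floor of 3 counts, and these genes do not stand for the list, most of which rose. Ptprc, which encodes CD45, was at 0 to 5.95 CPM in controls and 3.26 to 30.9 CPM at E1, and Itgam, which encodes CD11B, at 1.12 to 5.19 and 3.91 to 20.4 CPM, with adjusted p-values of 0.421 and 0.489. In a fit of only the groups compared both were called (0.0169 and 0.0255), as they were when that fit had the replicate block (0.000603 and 0.00253). Summed T cell markers were at 36.5 to 61.3 and 65.9 to 199 CPM, with Trbc2 and Ms4a4b called of 15 (both lost without any of the 5 controls, adjusted p up to 0.0985 and 0.138, and without E1 library 4, 0.117 and 0.104, the latter also without library 5, 0.141). Cd3e had 2 counts over the controls and 36 over E1, all in libraries 4 and 5.

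Oligodendrocyte markers summed to 1525 to 5253 CPM in controls and 4306 to 12655 CPM at E1, with Mobp and Cldn11 called of 12. Mobp was lost without control 2 (adjusted p = 0.0513), and without E1 libraries 4 and 5 neither was called (0.123 and 0.254). All 12 oligodendrocyte markers had a log2 fold change above 0, with a median of 1.22. In 4 of them all E1 libraries lay above all controls, against 1.46% of all genes. Monocyte markers were at 20.8 to 47.3 and 34.2 to 169.6 CPM, with Plac8 called of 12, lost without any control (0.077 to 0.095) or E1 library 5 (0.141). The monocyte list includes Vim, the partner filament of Gfap given above, and 6 of its 12 genes had no count in controls. Its sum therefore does not stand for monocytes alone. Neutrophil markers were at 0 to 8.74 and 4.07 to 30.7 CPM with 0 called of 9. Single calls in the other lists were Ly6a of 11 endothelial genes, which interferons also induce, Tubb3 of 14 neuronal genes and A2m of 11 Bergmann glia genes. Ly6a was lost without control 2 or 4 (adjusted p up to 0.0699), Tubb3 without control 2, 3 or 5 (up to 0.0775), and A2m without any of the 5 controls (0.0575 to 0.122) or E1 library 5 (0.0969) or 6 (0.0647). Sums for endothelial cells (137 to 199 and 135 to 200 CPM), pericytes (123 to 152 and 97.7 to 149 CPM), neurons (237 to 511 and 268 to 410 CPM), oligodendrocyte precursors (514 to 640 and 366 to 782 CPM), B cells (0.85 to 7.87 and 0.652 to 27.6 CPM) and erythroid cells (2.77 to 40.9 and 0.292 to 35 CPM) overlapped between the groups. Ependymal sums were at 11.7 to 22.8 CPM at E1 and 26.2 to 45.3 CPM in controls, without overlap, with 0 called of 9.

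**Figure D3:**
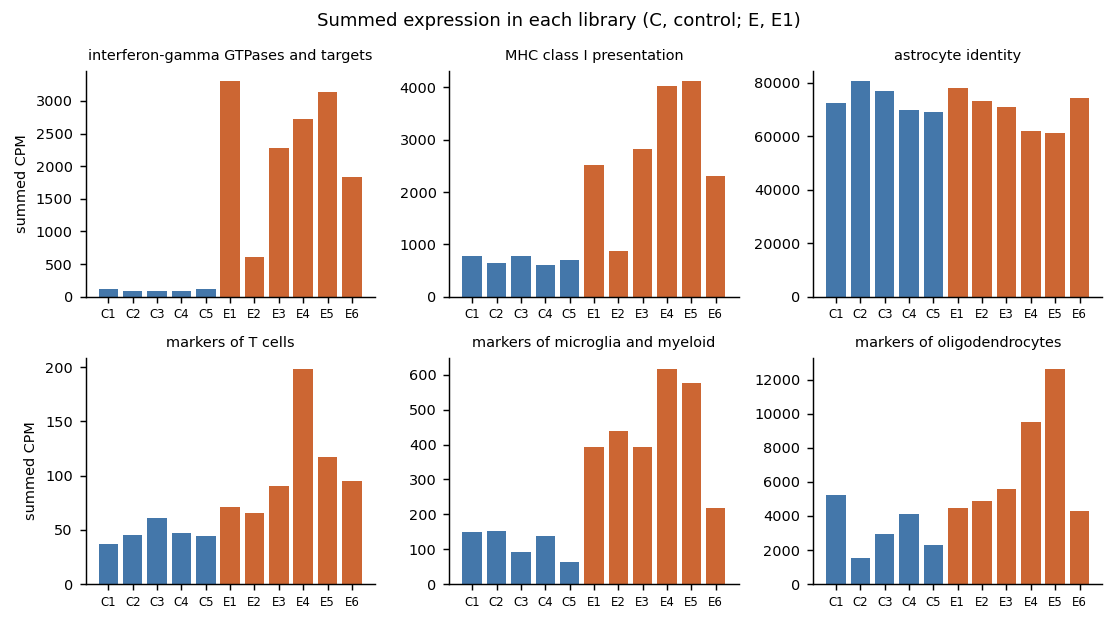
Summed CPM of 3 lists and of 3 sets of cell type markers in each of the 5 control (blue) and 6 E1 (orange) libraries. E1 library 2 has the lowest interferon-gamma sum at 615 CPM and the lowest T cell sum at 65.9 CPM, with a myeloid sum of 440 CPM, and libraries 4 and 5 have the highest oligodendrocyte sums, 9527 and 12655 CPM.

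The E1 libraries differed among themselves in the size of the response. Library 2 was the lowest of the 6 for 97 of the 148 genes called higher, and libraries 4 and 5 were the highest for 49 and 54. Summed interferon-gamma targets were at 3300, 615, 2284, 2718, 3130 and 1832 CPM in libraries 1 to 6, against 85.9 to 118 CPM in controls. In the same order T cell sums were at 71.4, 65.9, 90.7, 198.5, 117 and 95.2 CPM and myeloid sums at 394, 440, 393, 618, 577 and 219 CPM. Library 1, the highest for the interferon-gamma targets, was the second lowest for T cell markers, and library 2, the lowest for these targets, was the lowest for T cell, monocyte (34.2 CPM, a list that includes Vim) and neutrophil markers (4.07 CPM) and the third highest for myeloid markers. The part of these cells in the values was not tested. Summed MHC class I genes were at 2509, 882, 2826, 4031, 4113 and 2307 CPM, against 602 to 783 CPM in controls. Without libraries 4 and 5, which held the highest T cell, myeloid and oligodendrocyte sums, 87 genes were called, of which 84 were among the 150, an alternative chosen after seeing the data. There 14 interferon-gamma targets, 20 interferon-stimulated genes and 8 MHC class I genes were called, C1ra, Ccl2, Ccl5, Gbp4, Gbp6, H2-Aa and Osmr were not, and Igtp, Iigp1, Bst2, C4b, Serpina3n, Gfap and Stat3 were among the genes called under every alternative tried.

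The change at E1 was set beside that of the other sorted populations of the experiment. In GLAST-positive hindbrain astrocytes 297 genes were called higher (1.27%) and 50 lower (0.214%), 1.49% in all. In spinal cord GLAST-negative astrocytes 582 were higher (2.5%) and 858 lower (3.68%), 6.17% in all. These comparisons share no library, but numbers in the sample titles recur across the populations, so that libraries may come from the same mice. The labels do not say what the number marks, and the tests of differences treat the libraries as independent. Of the 148 genes, 97 were called higher in GLAST-positive hindbrain cells, with a median log2 fold change of 3.01 over the 148, and 120 in spinal cord, with a median of 3.42. Igtp changed by 5.47 ± 0.67, 5.28 ± 0.66 and 5.87 ± 0.69 in hindbrain GLAST-negative, hindbrain GLAST-positive and spinal cord cells, C4b by 3.86 ± 0.42, 4.91 ± 0.45 and 4.89 ± 0.44, and Gfap by 2.94 ± 0.37, 3.46 ± 0.38 and 1.98 ± 0.36. For these genes the differences between populations did not pass the test. Serpina3n changed by 4.52 ± 0.54 in hindbrain GLAST-negative cells and by 6.45 ± 0.59 in spinal cord, a difference of -1.93 ± 0.68 at an adjusted p of 0.193.

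Against GLAST-positive hindbrain cells, 2 genes differed in their change (0.00857%), both lower in GLAST-negative cells. Thbs2, a matrix protein that astrocytes secrete to promote synapses, was at 27 to 48.6 CPM in controls and 23.2 to 64.9 CPM at E1 here, a change of 0.33 ± 0.40. In GLAST-positive cells it went from a mean of 0.874 to 14.3 CPM, a change of 3.97, and the difference was -3.64 ± 0.65 (adjusted p = 0.00461), called in all 29 alternatives that did not use the title number. Over the 14 libraries whose first title number occurs in both populations, its adjusted p was 0.000135 with that number as a block and 0.175 without. Its level at E1 in GLAST-positive cells was thus still below that of GLAST-negative controls. The other gene, Gm12338, rested on 1 control as above. The T cell sum reached 1247 CPM in GLAST-positive E1 libraries, against 199 CPM here, and its part in the counts was not tested.

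Against spinal cord, 50 genes differed in their change (0.214%), 34 with a positive difference (0.146%) and 16 with a negative one (0.0686%), against a median difference of 0.10 over all genes. The count depends on single libraries: it was 17 without hindbrain E1 library 6 and 388 without spinal cord E1 library 2. Every positive gene had a change below 0 in spinal cord and every negative gene a change above 0 there, and 1 of the 50 was called at E1 in hindbrain. The 5 with the smallest adjusted p changed little in hindbrain. Zic1, a transcription factor of the dorsal neural tube and cerebellum, was at 90.5 to 119 CPM in hindbrain controls and 80.9 to 151 CPM at E1 (-0.02 ± 0.26) and changed by -2.96 in spinal cord, a difference of 2.94 ± 0.42 (adjusted p = 2.73e-05). Gli1, a target of Sonic hedgehog signalling, changed by -0.04 and -4.56 (difference 4.52 ± 0.83, adjusted p = 0.00382), and Ttll3, a tubulin glycylase, by 0.22 and -3.34 (3.55 ± 0.59, adjusted p = 0.000467). Lbh, a regulator of transcription, changed by 0.09 and 2.04 (-1.95 ± 0.31, adjusted p = 0.00036), and the kinase gene Bmp2k by 0.21 and 2.10 (-1.89 ± 0.35, adjusted p = 0.00382). These 5 were called in all 28 alternatives that did not use the title number. Over the 10 libraries whose first title number occurs in both populations, Zic1, Ttll3 and Bmp2k were called with that number as a block while Gli1 (adjusted p = 0.796) and Lbh (0.0699) were not, and without the block only Zic1 and Ttll3 of the 5 were called.

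The spinal cord E1 libraries also differed from their controls in measures of purity and region. Atp1b2 was at 5175 to 7706 CPM in spinal cord controls and 1332 to 9215 CPM at E1, Slc1a3 at 130 to 215 and 38.7 to 227 CPM, the oligodendrocyte sum at 14767 to 42961 and 27386 to 63210 CPM and the Hox sum at 447 to 786 and 184 to 364 CPM. Their part in the differences was not tested. Fgfr3, an astrocyte receptor gene, differed by 1.69 ± 0.40 (adjusted p = 0.046) and was called in 10 of these 28 alternatives. For 1 spinal cord E1 library the title and the region label disagree; without it 111 genes differed.

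**Figure D4:**
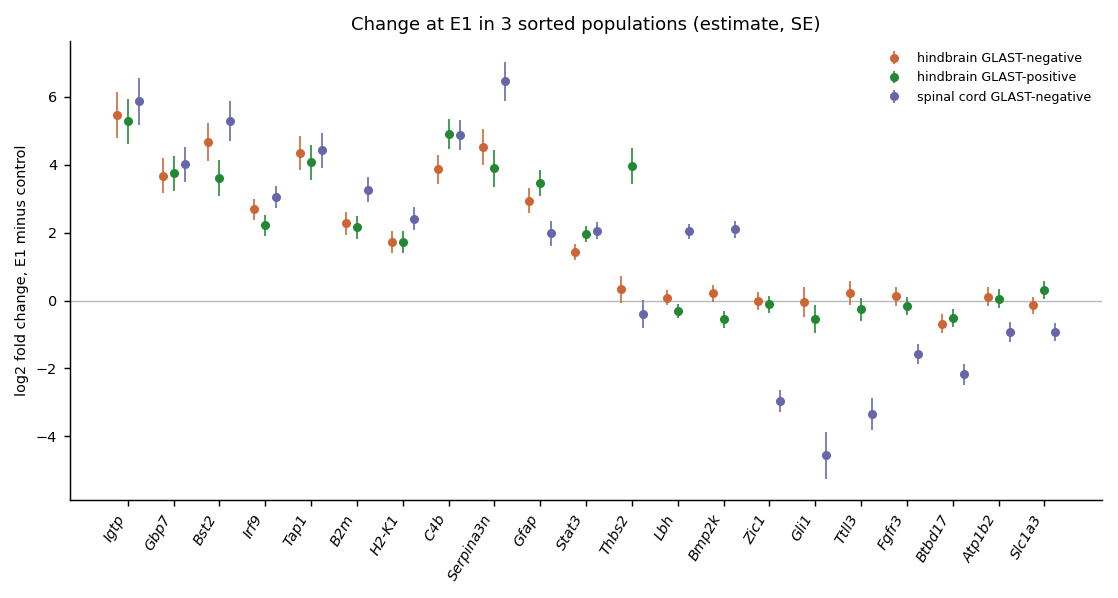
Log2 fold change at E1 (points, bars are SE) of 21 genes in 3 sorted populations. Interferon targets such as Igtp, at 5.47, 5.28 and 5.87, lie close together, while Thbs2 stands apart in GLAST-positive cells at 3.97 and Zic1, Gli1 and Ttll3 in spinal cord at -2.96, -4.56 and -3.34.

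Later stages of the same population were score 4 (E4, 6 libraries) and chronic disease (Ech, 6 libraries), each compared with the same 5 controls as E1. At E4 165 genes were called higher (0.707%) and 5 lower (0.0214%), and at Ech 44 higher (0.189%) and 1 lower (0.00429%). Of the 148 genes of E1, 125 and 38 were among them, with medians of 3.79 and 2.24 over the 148. Igtp was at 597 ± 298 CPM (SD, n = 6) at E1, 1335 ± 261 at E4 and 99.4 ± 82.4 at Ech, and H2-K1 at 1123 ± 571, 2866 ± 657 and 833 ± 273. Gfap stood at 226 ± 66.2, 229 ± 33.9 and 111 ± 38.3, and C4b at 497 ± 109, 736 ± 178 and 258 ± 133. In the direct tests, which use no control library, 0 genes differed between E4 and E1 (1399 at an unadjusted p under 0.05, 1 gene by DESeq2) and 0 between Ech and E1 (1900 and 10). H2-K1 had a difference of 1.35 ± 0.30 at E4 (adjusted p = 0.291), Igtp of 1.16 ± 0.50 at E4 (0.826) and -2.59 ± 0.53 at Ech (0.0663), and Tap1 of -2.13 ± 0.42 at Ech (0.0597).

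Sums of lists over the stages ran alike. Interferon-gamma targets summed to 615 to 3300 CPM at E1, 2837 to 5146 CPM at E4 and 290.5 to 1236 CPM at Ech, and MHC class I genes to 882 to 4113, 4513 to 7881 and 1349 to 2657 CPM. The MHC class I ranges of E1 and E4 did not overlap. The myeloid sum was 219 to 618, 240 to 1052 and 379 to 591 CPM at these stages and the T cell sum 65.9 to 199, 67.7 to 264 and 36.1 to 142 CPM, and their part in the stage values was not tested.

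**Figure D5:**
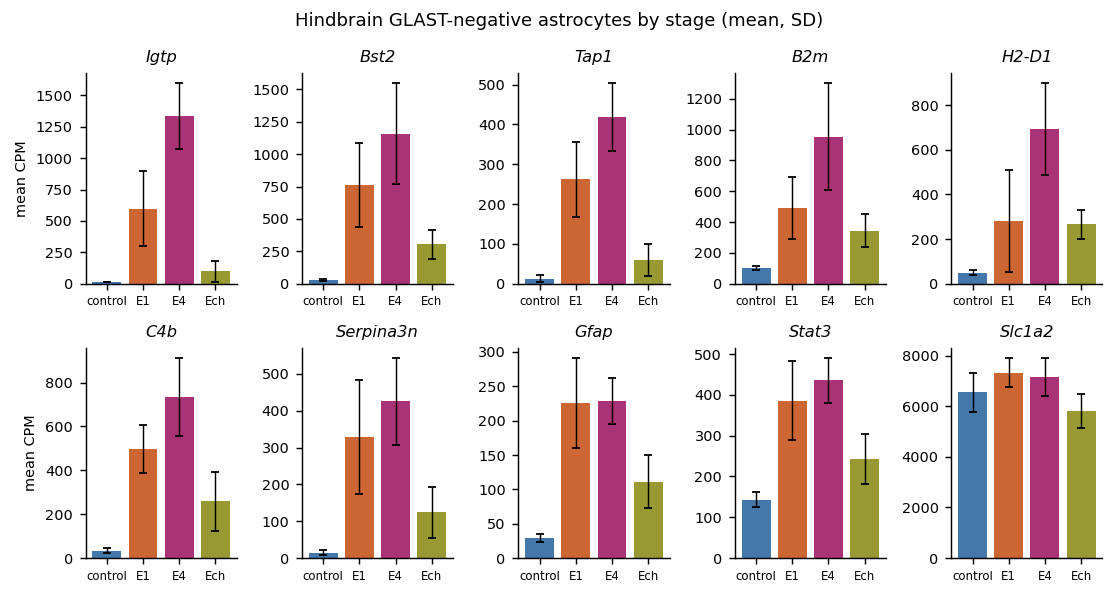
Mean CPM of 10 genes in controls (5 libraries) and at E1, E4 and Ech (6 libraries each), with SD as error bars. Igtp rises from 13.3 in controls to 597 at E1 and 1335 at E4 and is at 99.4 at Ech, while Gfap is at 226 and 229 at E1 and E4 and Slc1a2 is near 6552 to 7339 in controls and at E1.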

How the data were processed

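Raw read counts per gene were used as deposited: the authors trimmed bases of low quality, aligned reads to GRCm38 with HISAT 0.1.5, sorted them with SAMtools and counted reads per gene with HTSeq 0.6.1p1 in union mode. Whether counting used strand is not given in the sources used here, so overlapping genes may share counts. Columns were mapped to samples by title, and all 66 EAE libraries were mapped.

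Genes were kept if their counts summed to 10 or more in the 66 libraries (23324 of 48526), and fitted in edgeR 4.0.16 (R 4.3.3) with TMM factors and 1 mean per group of the 12, so that all groups share an estimate of the spread. The quasi-likelihood test was two-sided with Benjamini-Hochberg adjustment over all genes tested, and calls needed both an adjusted p below 0.05 and a log2 fold change beyond 1. SE is the log2 fold change divided by the square root of F. The fit was tested on simulated data. Alternatives were DESeq2 1.42.0, relative log expression factors, other filters, a fit of the compared groups alone, a replicate block, the sample sheet number as a covariate, the number in the titles as a block, no fold limit, and leaving out libraries. Sums and figures were made in Python 3.11.15 with pandas 2.3.3 and matplotlib 3.10.9.

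Genes were named if they were among the 15 largest or 15 lowest called changes with a mean of at least 5 CPM in either group, called members of a list, genes the study followed across stages, antigens of the sort, the 5 smallest adjusted p-values of each difference, or defining members of a list described. The members and lists were chosen with earlier results of these data known.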

Additional observations from a re-analysis of the deposited data

Results flagged for a closer look

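Groups of 5 or 6 libraries were checked for a library far from the others. Chance would flag about 1 in 20 groups if values were independent and normally spread, which was not tested for these CPM. Of 112 groups checked, 12 held such a library, and this count is not read as an excess over chance. Among controls these were library 1 for Gm12338 (243.1 CPM) and for the neuron sum (510.8 CPM), library 2 for the neutrophil sum (8.741 CPM), library 3 for Il1b (1.998 CPM) and the ependymal sum (45.29 CPM), and library 5 for Aldh1l1 (71.38 CPM), Gm4951 (2.248 CPM) and Slc30a10 (136 CPM). Among E1 libraries they were library 4 for Lgals9 (24.58 CPM) and Trbc2 (34.41 CPM), and library 5 for Cxcl10 (138.9 CPM) and the neutrophil sum (30.7 CPM).

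The change at E1 differed by a test of the difference from that of GLAST-positive hindbrain astrocytes for Thbs2 (-3.636 on the log2 scale) and Gm12338 (-14.92). It differed from that of spinal cord for Zic1 (2.943), Ttll3 (3.555), Gli1 (4.52), Fgfr3 (1.688), Lbh (-1.946) and Bmp2k (-1.886).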

How the results depend on the processing

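The 150 calls at E1 became 238 with DESeq2, 239 with no filter on low counts, 398 in a fit of the compared groups alone, 450 when that fit had the replicate block, and 87 without E1 libraries 4 and 5, an alternative chosen after seeing the data. Leaving out 1 library gave 103 to 183. None of the 88 called genes named by the rule reversed its direction, and 61 of the 88 were called under all alternatives fixed at the start. Leaving out 1 control kept 65 to 70 of the 88, and leaving out E1 libraries 4 and 5 kept 57.

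The 2 differences from GLAST-positive cells became 17 with DESeq2, 9 with no filter, 5 in the groups alone and 52 with the replicate block, and 1 to 5 without 1 library. The 50 differences from spinal cord became 232 with DESeq2, 81 with edgeR's own expression filter, 115 with no filter and 197 with the replicate block. They ranged from 17 without hindbrain E1 library 6 to 388 without spinal cord E1 library 2, so this count depends on single libraries. Over libraries whose first title number occurs in both populations, an alternative chosen after seeing the data, the counts were 134 with that number as a block and 2 without against GLAST-positive cells (7 pairs), and 77 and 2 against spinal cord (5 pairs). Deviations of these pairs correlated at -0.0381 to 0.224 (mean 0.0934) and at 0.00459 to 0.0814 (mean 0.0427). Other pairs correlated at -0.339 to 0.230 (mean -0.0122) and at -0.149 to 0.209 (mean -0.00423). Some titles hold a second number, which was not used, so pairs that share it count among the other pairs. The data do not settle whether the numbers mark shared mice. Between E4 and E1 the 0 calls became 1 with DESeq2, 2 with no filter, 2 in the groups alone and 29 with the replicate block, and stayed at 0 to 0 without 1 library. Between Ech and E1 they became 10, 17, 72 and 193 under these, 2 with the sheet number as a covariate and 0 to 2 without 1 library. The cause of these shifts was not tested.

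Replicate numbers do not pair the samples: deviations of same-numbered libraries correlated at -0.188 to -0.0122 over 5 pairs, and 0 controls correlated best with their own number. Depth limits low genes, since 3 counts are 0.853 to 2.28 CPM per library.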
